A study of Gallus gallus with 2 samples.

Results

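The ion channel genes of chicken breast muscle were compared between birds fed added tyrosine and birds fed the basal diet. They were taken by symbol, as the listed genes named for potassium (KCN), sodium (SCN), calcium (CACNA, CACNB, CACNG) and chloride (CLCN, CLIC, ANO) channels and for the non-selective TRPM, TRPC, TRPV, TRPA, HCN, P2RX and PIEZO channels. Of 15073 listed genes, 107 had such a symbol, and 104 were kept after TRPM1, CACNA1S and CACNG1 had been left out. Another gene to be left out, CACNB1, was not found by symbol. Of the 104 genes, 52 belong to potassium, 7 to sodium, 8 to calcium and 16 to chloride channels, and 21 to non-selective cation channels. Symbols also bring in proteins that form no pore themselves, such as the accessory subunits KCNE3 and KCNAB2, and the signalling adaptor TRPC4AP. Several CLCN and ANO proteins act as ion exchangers or as lipid scramblases.

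Test group IV received the basal diet with 0.8% added tyrosine, and the control group received the basal diet alone. All birds were Xichuan black-bone chickens sampled at 12 weeks, after a fast that was the same for both diets. Total RNA from the breast muscle of 3 birds was pooled in each group, and 1 library was sequenced per pool. With 1 library per group, no value below has a replicate check, and none of the differences was tested between diets. The libraries held 14318101 counted fragments in test group IV and 13135159 in the control group.

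A muscle fibre fires when sodium channels open, and it is brought back to rest by potassium and, unusually, by chloride channels, whose conductance dominates the resting fibre membrane. Calcium channel subunits link the action potential to contraction, and ATP-sensitive potassium channels, each built of a pore protein and a sulfonylurea receptor, tie excitability to energy supply. TRP and PIEZO channels admit cations in response to lipids, heat or stretch, and in a whole muscle many of them belong to vessels, nerves and connective tissue. In a bulk sample, fewer cells of a type and less RNA per cell cannot be told apart.

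FPKM values, the fragments of a gene per kilobase of transcript, scaled to the depth of the library, are used below as deposited. They allow levels of different genes to be compared per length. Fold changes are the FPKM of test group IV over that of the control group, and a positive log2 value means higher in test group IV. The 95% interval given with a fold change was worked out by the exact Clopper-Pearson method from how a gene's fragments divide between the libraries. It covers counting error only and says nothing of the spread between birds or pools.

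The tissue label was checked against muscle genes. The fast muscle genes TNNT3, TNNI2 and MYL1 had FPKM values of 9424, 8638 and 6607 in test group IV, against 9943, 8007 and 5866 in the control group. PVALB had only 5 fragments in test group IV and 1 in the control group, and the other 4 muscle markers of the list were not found by symbol. Among other cell types, all 4 melanocyte markers found (DCT, PMEL, GPNMB and EDNRB2) were higher in test group IV, with a summed FPKM of 10.4 against 0.527 in the control group. All 4 adipocyte markers found were lower, with a summed FPKM of 44.5 in test group IV and 69.5 in the control group. Endothelial markers had nearly equal sums, at 50.3 in test group IV and 49.9 in the control group. Blood and immune markers summed to 249.1 in test group IV and 196.4 in the control group. Of the 5 found, 2 were higher and 3 lower in test group IV. CD74 made up most of that sum, at 207.2 FPKM in test group IV and 154.4 in the control group.

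Levels of the channel genes reached a mean FPKM of 57.0, for ANO6. A mean FPKM of at least 0.1 was reached by 85 of the 104 genes, and by 14094 of all listed genes. The other 19 had between 1 and 14 fragments over the libraries together, and 10 of them had none in test group IV, against 1 to 5 in the control group. No fold change is given for these 10. Because every listed gene has at least 1 fragment in the control group and 796 have none in test group IV, weakly expressed genes lean toward lower values in test group IV. The genes just inside the minimum included SCN8A, which exceeded it by less than rounding shows, and TRPC4, with a mean FPKM of 0.115. Just outside it lay KCNMB4, KCNS3 and KCNK12, with 0.0992, 0.0962 and 0.0907.

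Channel expression as a whole was nearly equal in the libraries. The FPKM values of the 85 genes summed to 471.0 in test group IV and 469.1 in the control group. All 104 genes together took 0.183% of the fragments in each library. Chloride genes made up 36.3% of the summed FPKM in test group IV and 38.6% in the control group, and potassium genes 26.7% and 26.3% in the same order. Sodium genes had a share of 13% in test group IV and 10.3% in the control group. The share of calcium genes was 9.62% in test group IV and 10.8% in the control group.

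The 13 genes at or above a mean FPKM of 10 carried 70.9% of the summed channel FPKM in test group IV and 69.9% in the control group. Their log2 fold changes lay between -0.42 and 0.58, so all 13 differed by less than 1.5-fold. ANO6, CACNA2D1, TRPC4AP and SCN4A were the most abundant. Counting intervals lay above equal expression for 4 of the 13 (SCN4A, KCNJ2, CLCN1 and ANO5), below it for 3 (ANO6, CACNA2D1 and CLIC5), and spanned it for 6. Over all 4195 genes at this level, 41.8% of intervals lay above and 19% below.

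**Figure D1:**
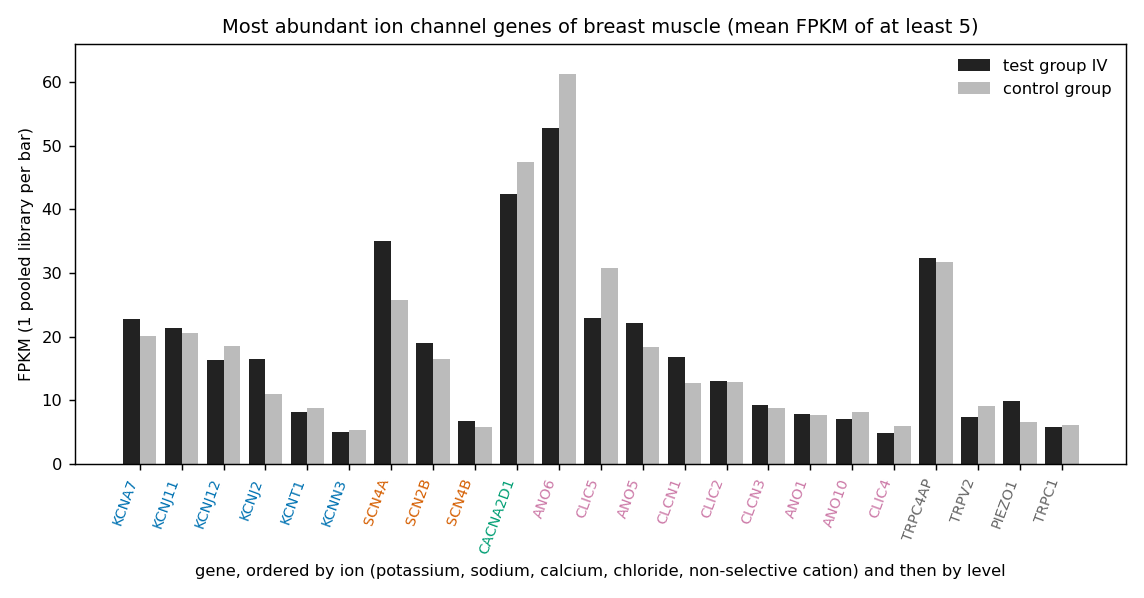
FPKM of the 23 channel genes whose mean FPKM was at least 5, in test group IV (dark bars) and the control group (grey bars), with 1 pooled library per bar and no error bar. Genes are ordered by ion and then by level, and SCN4A, KCNJ2 and PIEZO1 stand higher in test group IV while ANO6, CACNA2D1 and CLIC5 stand lower.

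Sodium channels start the action potential. SCN4A, the pore-forming sodium channel of adult skeletal muscle, lies on chromosome 27 of Galgal5 from 1801386 to 1824248. It had 2743 fragments in test group IV (FPKM 35.1) and 1844 in the control group (FPKM 25.7). The log2 fold change was 0.45 (95% interval 0.36 to 0.53), and it was 0.36 after scaling by the median ratio. No other potassium or sodium channel gene had a mean FPKM as high. SCN2B and SCN4B encode beta subunits, which change the gating of the pore, and they lie 5467 bases apart on chromosome 24. SCN2B had FPKM values of 19.1 in test group IV and 16.6 in the control group, and SCN4B had 6.82 and 5.83 in the same order. The intervals of both reached from below to above equal expression (from -0.12 to 0.53 for SCN2B and from -0.33 to 0.78 for SCN4B).

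The other sodium channel genes were barely detected. SCN8A, a sodium channel of neurons, had 2 fragments in test group IV and 15 in the control group, a log2 fold change of -3.03 (95% interval -6.20 to -0.93). SCN9A had 11 fragments in test group IV and 3 in the control group, and SCN3B had 4 and 1 in the same order.

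Chloride channels set the resting conductance. CLCN1, the muscle chloride channel whose loss causes myotonia in mammals, lies on chromosome 1 from 77610132 to 77667963. It had 692 fragments in test group IV (FPKM 16.8) and 482 in the control group (FPKM 12.8), a log2 fold change of 0.40 (95% interval 0.23 to 0.57). The 5 endosomal and lysosomal exchanger genes CLCN3, CLCN4, CLCN5, CLCN6 and CLCN7 had log2 fold changes between -0.21 and 0.20, and the interval of each spanned equal expression.

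Among the anoctamins, ANO6, a calcium-activated lipid scramblase found in most cells, had 4563 fragments in test group IV (FPKM 52.8) and 4857 in the control group (FPKM 61.3). Its log2 fold change was -0.21 (95% interval -0.27 to -0.16). ANO5, which is mutated in a human limb-girdle muscular dystrophy, was higher in test group IV, with 2155 fragments against 1651 in the control group and a log2 fold change of 0.26 (95% interval 0.17 to 0.35). The calcium-activated chloride channel gene ANO1 had 398 fragments in test group IV and 354 in the control group, and its log2 fold change of 0.04 had an interval from -0.17 to 0.26. ANO4 rested on 9 fragments in test group IV and a single one in the control group, and its log2 fold change of 3.05 had an interval from 0.19 to 8.50. CLIC proteins exist in soluble and membrane forms. CLIC5 was lower in test group IV, with FPKM values of 23.0 against 30.8 in the control group and a log2 fold change of -0.42 (95% interval -0.60 to -0.25). CLIC4 was lower as well, at 4.86 FPKM in test group IV and 6.02 in the control group (log2 fold change -0.31, 95% interval -0.58 to -0.04). CLIC2 had 374 fragments in test group IV and 339 in the control group (log2 fold change 0.02, 95% interval -0.20 to 0.23).

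Inward rectifier potassium channels hold the resting potential and, in the transverse tubules, return potassium to the fibre. KCNJ2, on chromosome 18 from 8259055 to 8265799, had 501 fragments in test group IV (FPKM 16.5) and 308 in the control group (FPKM 11.0), a log2 fold change of 0.58 (95% interval 0.37 to 0.79). In the deposited values its close relative KCNJ12 showed no such difference beyond counting error. KCNJ12 had 301 fragments in test group IV (FPKM 16.3), 315 in the control group (FPKM 18.6) and a log2 fold change of -0.19 (95% interval -0.42 to 0.04). After scaling by the median ratio the log2 fold change of KCNJ12 was -0.28, and its interval then lay below equal expression. KCNJ16, which ends 14687 bases before KCNJ2 on the same chromosome, had 0 fragments in test group IV and 2 in the control group. The third strong rectifier gene, KCNJ4, had 4 fragments in test group IV and 5 in the control group.

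The pore genes of ATP-sensitive potassium channels differed from each other. KCNJ11, the pore subunit of striated muscle and of insulin-secreting cells in mammals, had 581 fragments in test group IV (FPKM 21.4) and 514 in the control group (FPKM 20.6), a log2 fold change of 0.05 (95% interval -0.12 to 0.23). KCNJ8, the pore subunit of vascular smooth muscle and pericytes in mammals, had 126 fragments in test group IV (FPKM 1.84) and 249 in the control group (FPKM 3.96). Its log2 fold change was -1.11 (95% interval -1.43 to -0.79), and among the channel genes at or above a mean FPKM of 1 it alone differed by 2-fold or more. As a share of the FPKM of the pore genes together, KCNJ8 contributed 7.91% in test group IV and 16.1% in the control group.

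Each pore gene lies beside a sulfonylurea receptor gene. On chromosome 5, KCNJ11 is 4209 bases from ABCC8, and on chromosome 1, KCNJ8 (from 67009473 to 67016833) is 9691 bases from ABCC9. ABCC9 was the main receptor gene in this muscle, with 90.3% of the FPKM of both receptor genes in test group IV and 87.9% in the control group. It did not share the lower level of its neighbour, with 2979 fragments in test group IV, 2501 in the control group and a log2 fold change of 0.13 (95% interval 0.05 to 0.20). ABCC8 had 307 fragments in test group IV and 330 in the control group. Of the 6 smooth muscle and pericyte markers found, ABCC9 among them, 5 were lower in test group IV. The summed FPKM of the list was 165.7 in test group IV and 199.2 in the control group. ABCC9 alone was higher, and its FPKM of 35.1 in test group IV and 32.1 in the control group is part of that sum. Whether ABCC9 marks these cells in this muscle was not tested. MYH11, a smooth muscle myosin, had a log2 fold change of -0.53, RGS5, a pericyte gene, -0.32, and PDGFRB -0.25, all smaller in size than that of KCNJ8. The part of these cells in the difference in KCNJ8 was not tested.

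Voltage-gated potassium channels end the action potential. KCNA7, a channel of skeletal muscle and heart in mammals, had the highest mean FPKM of the potassium channel genes, with 489 fragments in test group IV and 394 in the control group. Its log2 fold change of 0.19 had an interval from -0.01 to 0.38. It is the only member on an unplaced scaffold. Of the KCNQ genes, which encode slow potassium channels, KCNQ5 was the most abundant, and it was lower in test group IV, with 91 fragments against 143 in the control group and a log2 fold change of -0.78 (95% interval -1.17 to -0.39). KCNQ3 had 15 fragments in test group IV and 20 in the control group, a log2 fold change of -0.54 (95% interval -1.61 to 0.50). The accessory subunit gene KCNE3 had only 17 fragments in test group IV and 14 in the control group, on a gene model of 285 bases.

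Small-conductance calcium-activated channels appear in mammalian muscle fibres that have lost their nerve. KCNN3 had 533 fragments in test group IV and 514 in the control group, a log2 fold change of -0.07 (95% interval -0.25 to 0.11). Its Galgal5 locus overlaps 4 other listed genes, among them SHC1 with 551 fragments in test group IV and 602 in the control group, and how fragments were divided between them was not tested. KCNN1 was lower in test group IV (76 fragments against 99 in the control group, log2 fold change -0.51, 95% interval -0.96 to -0.06). KCNN2 was higher, with 44 fragments in test group IV against 21 in the control group, and its log2 fold change of 0.94 had an interval from 0.16 to 1.77. KCNN2 lies on the Z chromosome, where the 635 genes that reached the minimum had a median log2 fold change of 0.10. KCNT1, a sodium-activated channel gene, had 521 fragments in test group IV and 514 in the control group.

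Calcium channel genes other than the left-out subunits of the muscle voltage sensor were dominated by CACNA2D1, the alpha2delta subunit that accompanies this sensor. It had 4697 fragments in test group IV (FPKM 42.5) and 4815 in the control group (FPKM 47.5), a log2 fold change of -0.16 (95% interval -0.22 to -0.10). CACNA2D2 was lower, with 78 fragments in test group IV and 111 in the control group (log2 fold change -0.63, 95% interval -1.07 to -0.20). CACNA1C, the L-type channel of heart and smooth muscle, was higher in test group IV, with 39 fragments against 16 in the control group and a log2 fold change of 1.16 (95% interval 0.29 to 2.10). The T-type channel genes had few fragments and intervals that spanned equal expression, at 89 in test group IV and 67 in the control group for CACNA1G and at 11 and 19 in the same order for CACNA1H.

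**Figure D2:**
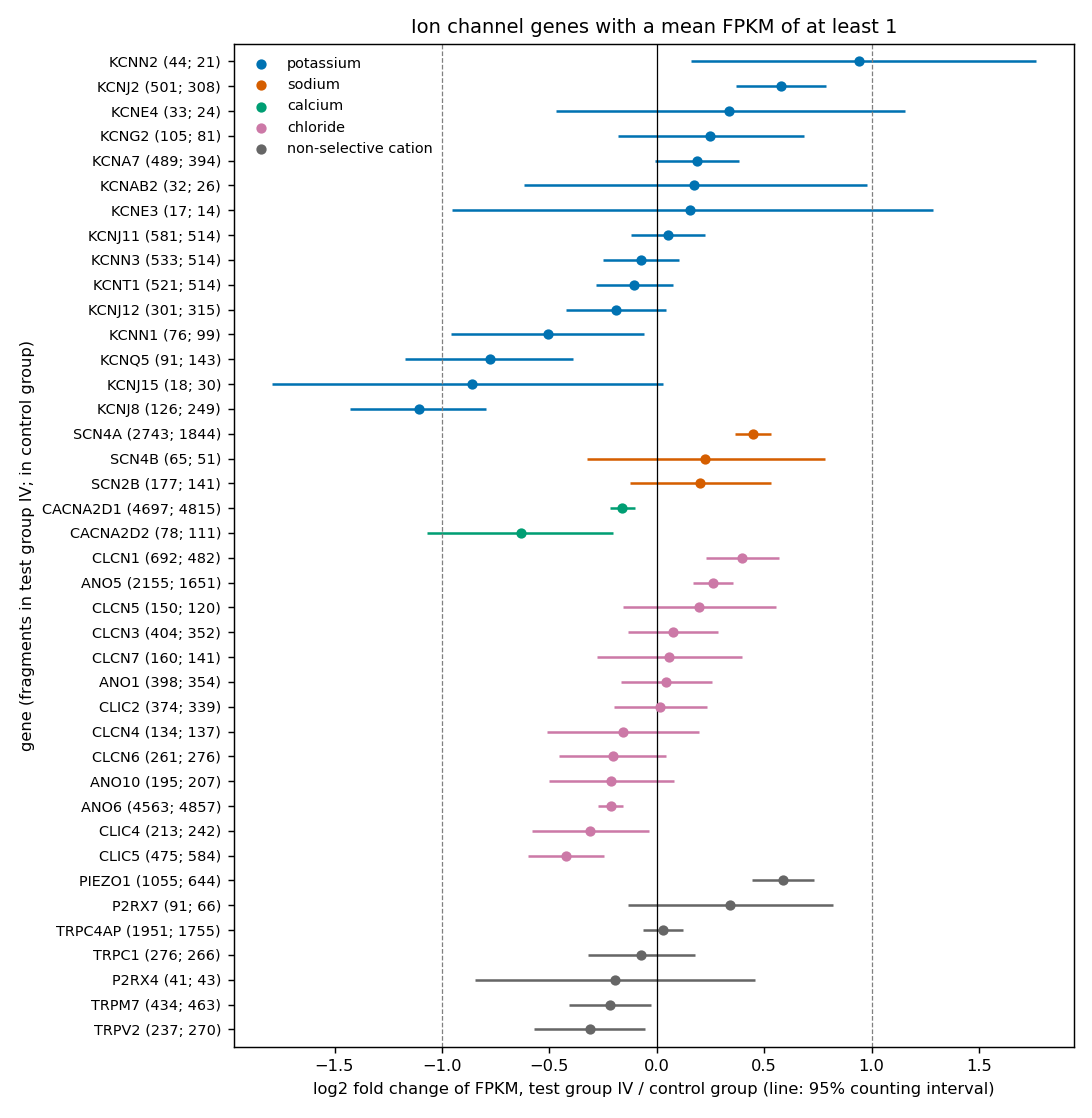
Log2 fold change of the 40 channel genes at or above a mean FPKM of 1 (points), with 95% counting intervals (lines) and the fragments in test group IV and in the control group beside each name, coloured by ion. Dashed lines mark a 2-fold difference, which KCNJ8 alone passed, at -1.11.

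Among the stretch and TRP channels, PIEZO1, a mechanically gated channel found in vessels and in muscle stem cells of mammals, lies on chromosome 11 from 18681594 to 18700558. It had 1055 fragments in test group IV (FPKM 9.85) and 644 in the control group (FPKM 6.56), a log2 fold change of 0.59 (95% interval 0.44 to 0.73). PIEZO2, the touch channel of sensory nerves, had 20 fragments in test group IV and 28 in the control group. TRPV2 and TRPM7 were slightly lower in test group IV. TRPV2 had 237 fragments in test group IV and 270 in the control group, with a log2 fold change of -0.31 (95% interval -0.57 to -0.06). TRPM7, a channel fused to a kinase, had 434 and 463 in the same order, with a log2 fold change of -0.22 (95% interval -0.41 to -0.03). P2RX4 and P2RX7, ATP-gated channels whose genes lie 1432 bases apart on chromosome 15, had intervals that spanned equal expression.

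TRPC channels open downstream of phospholipase C. TRPC6, on chromosome 1 from 183074878 to 183166584, was lower in test group IV. It had 4 fragments in test group IV (FPKM 0.0931) and 24 in the control group (FPKM 0.609), a log2 fold change of -2.71 (95% interval -4.70 to -1.17). TRPC1 had 276 fragments in test group IV (FPKM 5.78) and 266 in the control group (FPKM 6.07), with an interval from -0.32 to 0.18. TRPC4 had 5 and 6 in the same order.

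With added tyrosine, 8 of the 85 genes that reached the minimum (9.41%) were higher by 2-fold or more, and 13 (15.3%) were lower by 2-fold or more. Over all 14094 genes at this minimum, 5.43% were higher and 6.87% were lower by as much. Of the 85 genes, 10 passed the minimum in only 1 library, 4 in test group IV and 6 in the control group, and such genes had to differ. Of all 14094 genes, 617 passed in only 1 library, a smaller share than among the channel genes. The comparison depends on the level, because most channel genes are weakly expressed. Between a mean FPKM of 0.1 and 1, 8 of 45 channel genes (17.8%) were higher and 12 (26.7%) lower by 2-fold or more, against 14.7% and 20% of all 3470 genes in this range. The median log2 fold change in this range was -0.12 for the channel genes and -0.12 for all genes. Both medians are the value of a gene with equal fragment counts in the libraries, such as CACNG2 with 2 in each. With so few fragments per gene, this match says little. At a mean FPKM of at least 1, 0 of 40 channel genes were higher and 1 (2.5%) lower by 2-fold or more, against 2.41% and 2.59% of all 10624 genes. The shares of channel genes past 2-fold were thus near those of all genes of similar level.

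**Figure D3:**
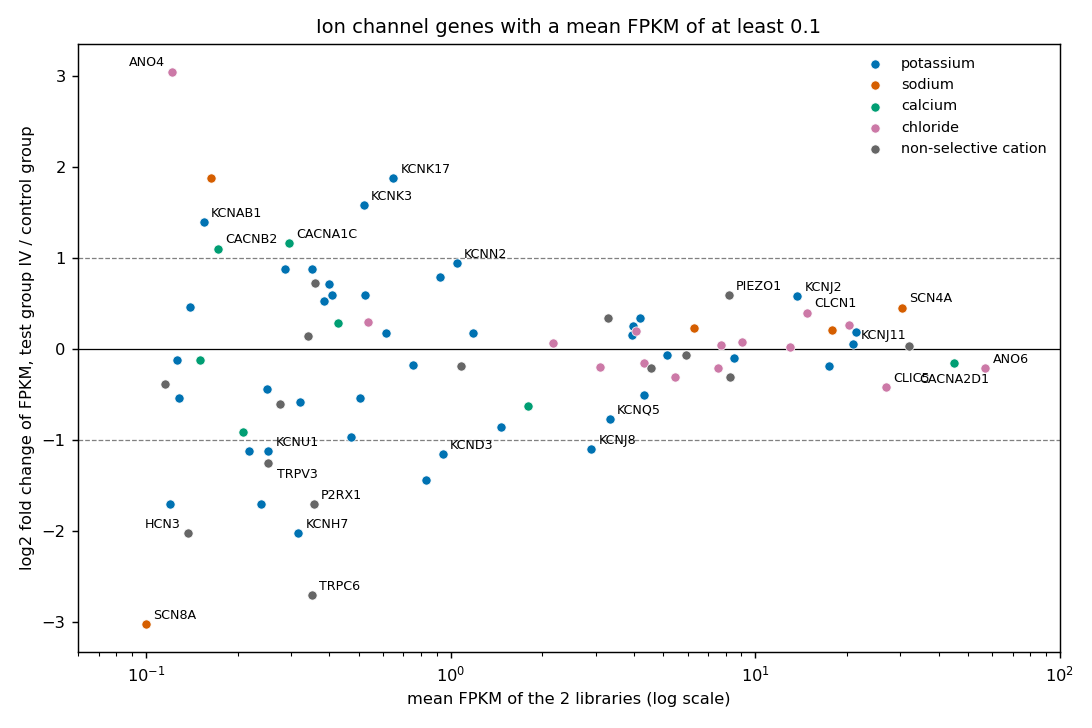
Log2 fold change of FPKM (test group IV over control group) against the mean FPKM of the libraries on a log scale for 83 of the 85 channel genes that reached 0.1, coloured by ion, with dashed lines at a 2-fold difference. Spread is wide below a mean FPKM of 1, where ANO4 lies at 3.05 and SCN8A at -3.03, and 39 of the 40 genes above 1 lie between the dashed lines.

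Counting intervals gave another view. They lay above equal expression for 11 of the 85 genes (12.9%) and below it for 15 (17.6%), against 23.5% and 13% of all genes at this minimum. After median ratio scaling they lay above for 10 (11.8%) and below for 21 (24.7%), against 16.5% and 18.1% of all genes. At a mean FPKM of at least 1, they lay above for 6 of 40 channel genes (15%) and below for 10 (25%), against 28.9% and 15.4% of all genes. Whether an interval excludes equal expression depends on the number of fragments. The median number over both libraries was 49 for the 85 channel genes and 243 for all genes at the minimum. At a mean FPKM of at least 1 it was 522 for the channel genes and 459 for all genes. The median log2 fold change of the channel genes was -0.07 over the 85 genes, against 0.07 over all genes at the minimum. It was 0.02 over the 40 genes at or above a mean FPKM of 1, against 0.09 over all genes.

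By ion, the median log2 fold change was -0.09 over the 42 potassium channel genes at the minimum, of which 3 were higher and 8 lower by 2-fold or more. This median was 0.05 over those at or above a mean FPKM of 1 and 0.16 over those with at least 20 fragments. Of the 42, 27 had a mean FPKM under 1, where 14.7% of all genes were higher and 20% lower by 2-fold or more. All of the 11 potassium channel genes past 2-fold except KCNJ8 lay in that range. The 16 non-selective cation genes had a median of -0.21, and 1 was higher and 4 lower by as much, with 9 of the 16 under a mean FPKM of 1. Of the 15 chloride genes, 1 (ANO4) was higher by 2-fold or more and none lower, and 2 of the 15 were under a mean FPKM of 1. Their median was 0.04, which was -0.05 after median ratio scaling. The 7 calcium genes had a median of -0.12, the value of CACNG2 with 2 fragments in each library. This median was -0.40 over those at or above a mean FPKM of 1 and -0.16 over those with at least 20 fragments. Over all 8 with no minimum it was 0.08. Of the 7, 2 were higher and none lower by 2-fold or more, with 5 under a mean FPKM of 1. The 5 sodium genes had a median of 0.23, with 4 higher and only SCN8A lower. By 2-fold or more, 1 sodium gene (SCN3B) was higher and 1 (SCN8A) lower, both under a mean FPKM of 1. Over all 14094 genes at the minimum, 5.43% were higher and 6.87% lower by 2-fold or more.

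Of the 21 genes past 2-fold, 16 had at least 10 fragments, and 11 had an interval on one side of equal expression. The same counts were not made over all genes past 2-fold, so they say nothing of channel genes as a set. The 11 included KCNJ8, TRPC6, CACNA1C, ANO4 and SCN8A, described above, and KCNK17, KCNAB1, KCND3, KCNH7 and HCN3. ANO4, KCNAB1, SCN8A, HCN3 and TRPC6 are among the genes that reached the minimum only through the library in which they were higher, so part of their difference was set by that filter. KCNK17, a tandem pore leak channel gene, had 20 fragments in test group IV and 5 in the control group, with an interval from 0.42 to 3.64. KCNAB1, a beta subunit gene, had 20 in test group IV and 7 in the control group, with an interval from 0.09 to 2.87. On the lower side, KCND3, a channel of the transient outward current, had 20 fragments in test group IV and 41 in the control group, a log2 fold change of -1.16 (95% interval -2.01 to -0.36). KCNH7, a relative of the cardiac ERG channel that is known from the nervous system, had 8 and 30 in the same order, a log2 fold change of -2.03 (95% interval -3.37 to -0.87). HCN3, a pacemaker channel gene, had 4 fragments in test group IV and 15 in the control group, with an interval from -4.08 to -0.38.

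For the rest of the 16, counting error alone could span the difference. KCNK3 had 13 fragments in test group IV and 4 in the control group, and CACNB2 had 7 and 3. KCNU1 had 7 in test group IV and 14 in the control group, TRPV3 had 5 and 11, and P2RX1 had 4 and 12. The remaining 5 genes past 2-fold (SCN3B, KCNE5, KCNJ3, KCNK2 and KCNK13) had fewer than 10 fragments over both libraries.

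Nerve markers were compared because SCN8A and KCNH7 are known from neurons. Of the 5 Schwann cell and nerve markers found, S100B had 11 fragments in test group IV and 23 in the control group, and SOX10 had 54 and 41 in the same order. NEFM, a neurofilament gene, had only 2 and 3 in the same order. The summed FPKM of the 4 markers at the minimum was 17.4 in test group IV and 26.1 in the control group. The part of nerve in the levels of SCN8A and KCNH7 was not tested.

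**Figure D4:**
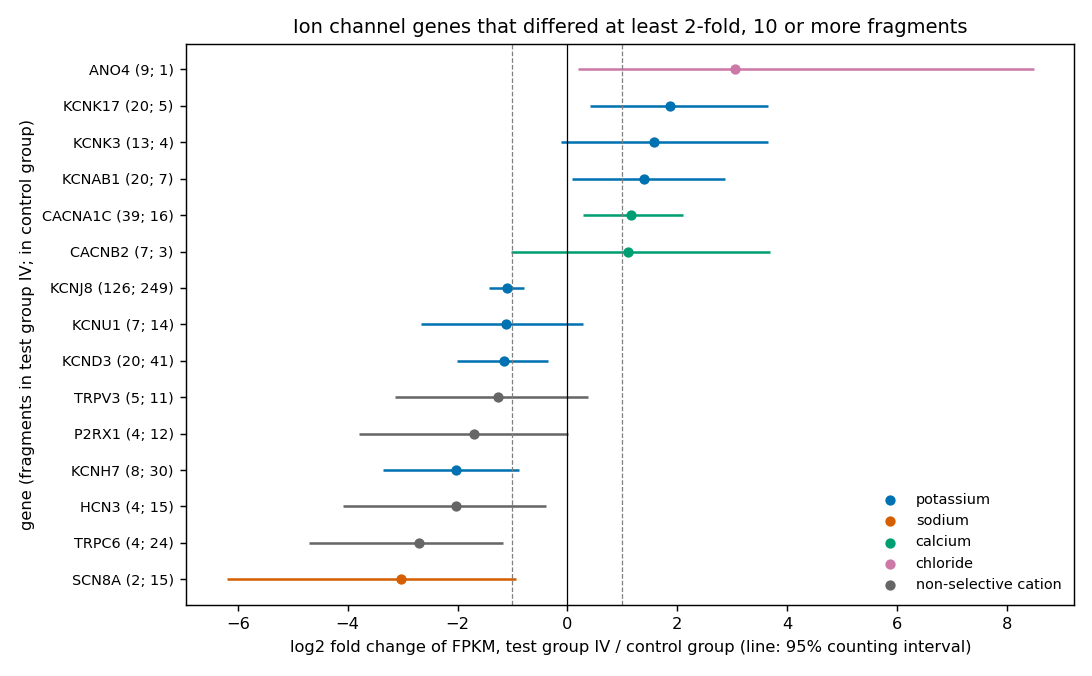
Log2 fold change (points) and 95% counting interval (lines) of 15 of the 16 channel genes that differed at least 2-fold with at least 10 fragments, with the fragments in test group IV and in the control group beside each name. The interval of KCNJ8 (from -1.43 to -0.79) lies clear of 0, and those of KCNK3, CACNB2, KCNU1, TRPV3 and P2RX1 reach across it. That of TRPC6 (from -4.70 to -1.17) lies below 0 as well. TRPC6 reached the FPKM minimum only through the control group, so part of its difference was set by that filter.

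Pumps, partners and channels outside these symbols were compared for context. Of 37 such genes, 29 were listed and 27 reached the minimum. Of these, 10 were higher and 17 lower in test group IV, against 8059 higher and 6035 lower of all 14094 genes at the minimum. By 2-fold or more, 2 were lower (SCNN1A and SCNN1B, on 27 and 13 fragments over both libraries) and none higher. Over all genes, 6.87% were lower and 5.43% higher by as much. The intervals of both genes spanned equal expression (from -2.46 to 0.10 for SCNN1A and from -4.36 to 0.10 for SCNN1B). DPP10, just under 2-fold, was higher in test group IV, with a log2 fold change of 0.96 (95% interval 0.25 to 1.71). Of the sodium pump genes, ATP1B4 had FPKM values of 223.1 in test group IV and 314.9 in the control group (log2 fold change -0.50, 95% interval -0.54 to -0.45). The beta subunit gene ATP1B1 was lower too, at 19.8 FPKM in test group IV and 32.9 in the control group (log2 fold change -0.73). Another beta subunit gene, ATP1B3, was higher, at 26.2 FPKM in test group IV and 22.9 in the control group (log2 fold change 0.19, 95% interval 0.05 to 0.34). The genes of store-operated calcium entry, STIM1, STIM2, ORAI1 and ORAI2, were all lower in test group IV, with log2 fold changes between -0.50 and -0.03, and 3 of their 4 intervals lay below equal expression, as did 15.4% of those of all genes at or above a mean FPKM of 1. The intervals of ORAI2 (from -0.65 to -0.0061) and STIM1 (from -0.39 to -0.0069) ended only just below equal expression. That of STIM2 ran from -0.82 to -0.17. The log2 fold change of ORAI1 had an interval from -0.57 to 0.53, and after median ratio scaling every one of these values would be lower by 0.09.

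Gene models bear on the levels of some members. For 10 of the 104 genes, the length behind the FPKM value equalled the span of the locus, so that the gene was counted as 1 uninterrupted block, and 9 of these lengths are multiples of 3, as for a coding length without UTRs. They include KCNJ11 (1899 bases), KCNJ12 (1290 bases) and KCNE3 (285 bases). Levels of these genes against genes with longer models rest on that length, whereas the fold change between the libraries does not.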

How the data were processed

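Reads were trimmed by the authors (Seqtk) and aligned to Galgal5 by TopHat 2.0.9, and fragments per gene came from StringTie 1.3.0. The submitters' processing notes also name HISAT2 and FastQC. The deposited values are whole-number fragment counts, not normalized, and FPKM values that the authors calculated with a Perl script, for 1 library per group. The library kit keeps the strand, and whether counting used it is not given in the sources used here.

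FPKM values were compared as deposited, with no test and no edgeR fit, since 1 library per group leaves no residual degrees of freedom. Counting intervals (95%, exact) used a relative depth of 1.09025, taken from the counts and FPKM values. A floor of 3 fragments corresponds to 2.10e-05% of the counts in test group IV and 2.28e-05% in the control group. PCR copies were not separated from molecules. A 2-fold difference and a mean FPKM of at least 0.1 were the thresholds, and 0.01 was added only where a value was 0 in 1 library. Named genes were members past 2-fold with at least 10 fragments, the 3 most abundant of each ion group, and 18 of 21 muscle channel genes of a list that were found. Others named were chosen after their values were seen. Members and lists were chosen with earlier results of these data known. Of 164 RefSeq symbols (GRCg7b, used for names only) that fit the rule, 62 were not found and were not analysed here. Intervals were tested on data simulated with counting error alone. Such data hold no spread between birds or pools, so they cannot show how the intervals do in its presence. Alternatives were median ratio (1.06) and trimmed mean (1.05) scaling, 0.1 or 1 added to each FPKM value, and other minima. Software was scipy 1.17.1, pandas 2.3.3, numpy 2.4.6 and matplotlib 3.10.9 under Python 3.11.15. Some genes are counted in the totals but not reported here by name or drawn.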

Additional observations from a re-analysis of the deposited data

How the results depend on the processing

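The number of channel genes past 2-fold depended on how weak genes were treated. Against 8 higher and 13 lower, adding 0.1 to each FPKM value gave 5 and 9, and adding 1 gave 1 and 0. A mean FPKM of at least 1 gave 0 and 1, and at least 20 fragments gave 4 and 5. With no minimum there were 12 higher and 25 lower. Median ratio scaling gave 8 and 15, and trimmed mean scaling 8 and 14. Shares of all genes past 2-fold are given above by level of mean FPKM. They were not worked out for the other alternatives, so those counts say nothing of channel genes as a set. Intervals above equal expression numbered 11, and 6 with a mean FPKM of at least 1. Median ratio scaling changed the sign of 6 of the 85 log2 fold changes, leaving 36 higher and 49 lower. With 1 added, TRPC6 had a log2 fold change of -0.56. The count of pump, partner and other channel genes past 2-fold was 2, and it was 1 with 0.1 added and 0 with 1 added, alternatives chosen after seeing the data. No replicate could be left out and no paired analysis was possible because each group has 1 library.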

Other observations

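An acid-sensing ion channel gene outside the chosen symbols, ASIC1, was listed at FPKM values of 483.0 in test group IV and 612.2 in the control group, above every one of the 104 channel genes. Its Galgal5 locus, on chromosome 33 from 296754 to 327900, contains the whole of SMARCD1 (from 300379 to 307956). In the RefSeq list of GRCg7b, GPD1, a glycolytic shuttle enzyme gene, lies next to SMARCD1 on the side away from ASIC1, and no gene with the symbol GPD1 was found among the listed genes. From which gene the 18891 fragments in test group IV and 21960 in the control group come was not tested.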
